A study of Homo sapiens with 2 samples.

Results

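A set of 10 genes that drive or restrain the cell division cycle, from the G1 phase to mitosis, was followed in SK-NEP-1 cells treated with the histone deacetylase inhibitor LBH589. The genes were CCND1, CCND2, CDKN1B, MYC, E2F5, CDC25A, WEE1, PLK1, FOXM1 and CUL1, which make up 10 of the 1741 genes named in the mRNA probe lists used here, and 12 of 1954 named mRNA probes among 58921 probes in all. They were chosen by the same LBH589 minus DMSO differences that are given below, as genes whose named probes were dimmer in the treated cells, so that the direction of every one of them was fixed by the choice, and their values are a description with no test. The lists that named them hold changed probes alone, so that passing 2-fold was largely fixed as well. One culture was treated with 100 nM LBH589 (panobinostat) and the other with an equal volume of DMSO, the solvent, for 24 h, and the RNA of each, cleared of rRNA and amplified, was labelled with Cy3 and hybridized to 1 Arraystar Human LncRNA v3.0 array. With 1 array for each condition the differences have no replicate check.

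SK-NEP-1 is an established line that the labels describe as a human kidney Wilms tumor line, and other work has since placed it with the Ewing sarcoma family. All cells came from this 1 line. Its identity could be checked on few genes, since 1 of 11 Ewing sarcoma markers and 1 of 10 kidney progenitor and Wilms tumor markers had a named probe. NKX2-2, a homeobox gene marking Ewing sarcoma, gave a signal of 290 in the DMSO-treated control cells and of 6.42 in the LBH589-treated cells, where it was not well above background. MEOX1, a mesoderm homeobox gene on the kidney list, gave 11.6 in control cells, not well above background, and 28.3 in treated cells. The latter lay under the brightest negative control probe of that array (32.6).

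The cell cycle is moved forward by cyclins, which switch on cyclin-dependent kinases (CDKs). In G1, growth signals raise D-type cyclins and MYC, the CDKs that they activate phosphorylate the retinoblastoma protein, and E2F factors then turn on the genes of DNA synthesis. CDK inhibitors restrain that step, WEE1 and CDC25 phosphatases hold back and release the CDKs by adding and removing inhibitory phosphates, and FOXM1 and PLK1 carry the cell into and through mitosis. Cullin-based ubiquitin ligases remove the regulators once they have served. Histone deacetylase inhibitors raise histone acetylation and are known to change the transcription of many genes and to arrest dividing cells.

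The signals were read by probes of 60 bases. The probes of 8 of the genes are shown because each stands for its whole gene in what follows, and the coordinates given with each gene below are those of the transcript that the probe was designed for (build hg19). The probes of MYC and E2F5 are not shown.
CCND1 probe: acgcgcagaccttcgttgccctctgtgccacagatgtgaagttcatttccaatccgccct
CCND2 probe: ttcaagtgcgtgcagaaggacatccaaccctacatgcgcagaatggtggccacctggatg
CDKN1B probe: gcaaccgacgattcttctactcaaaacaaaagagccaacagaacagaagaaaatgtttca
FOXM1 probe: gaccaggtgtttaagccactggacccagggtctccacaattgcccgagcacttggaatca
CDC25A probe: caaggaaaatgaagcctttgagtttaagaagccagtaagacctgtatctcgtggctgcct
WEE1 probe: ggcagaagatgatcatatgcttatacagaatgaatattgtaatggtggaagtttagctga
PLK1 probe: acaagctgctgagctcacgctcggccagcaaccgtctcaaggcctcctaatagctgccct
CUL1 probe: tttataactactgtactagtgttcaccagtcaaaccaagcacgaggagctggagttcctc
Among the 66 pairs of the 12 probes, the longest run of bases shared between probes of different genes was 8. E2F5 was read by 3 probes, of which 1 pair shared 17 bases, the only pair to share at least 15. The transcripts that each probe was designed to detect all belonged to the same gene. GC content ran from 35% to 66.7% over the 12 probes with a median of 55%, against a median of 45% over the 1954 named mRNA probes.

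The 12 probes were all well above background on the DMSO array, with processed signals (spot brightness less background, in the scanner's units) from 132 to 7574. On the LBH589 array their signals lay between 7.87 and 964 and 9 of 12 were well above background, the exceptions being FOXM1, WEE1 and CUL1. None of their spots was flagged or saturated, and each probe had 1 spot. The LBH589 array was the dimmer, with a 75th percentile of 108 against 189, and 63.3% of its probes were well above background against 66.0%. Each signal was therefore set against the 75th percentile of its own array, and a difference is given as LBH589 minus DMSO on the log2 scale, with the measurement error that the scanner software gives for the pair of spots. The 60 negative control probes had median signals of 5.18 and 3.96 on the DMSO and LBH589 arrays and reached 70.0 and 32.6. All 12 probes exceeded the brightest negative control on the DMSO array and 8 of 12 did so on the LBH589 array.

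**Figure D1:**
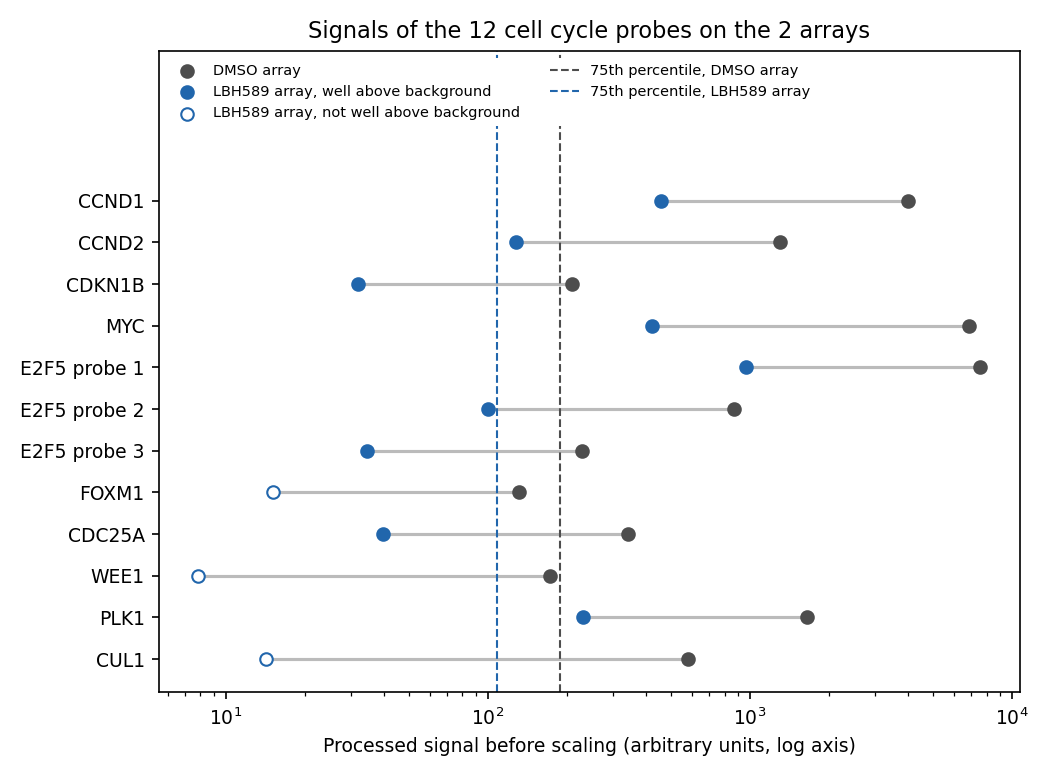
Processed signal of each of the 12 probes on the DMSO and LBH589 arrays, on a log axis in scanner units, with open symbols for signals not well above background and dashed lines at the 75th percentile of each array (189 and 108). Every LBH589 signal lies below the DMSO signal of the same probe, and the signals of FOXM1, WEE1 and CUL1 on the LBH589 array are open.

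All 12 probes were at least 2-fold lower in the LBH589-treated cells, against 10.2% of the 41574 probes that passed the background filter on either array (the tested probes), and 10 of 12 were at least 4-fold lower, against 2.54%. With the background corrected by normexp, an alternative described at the end, 11 and 4 of 12 were. The 4-fold count was 7 with median pixel signals and 9 with quantile normalization. It was 11 in the authors' table and 12 without scaling. Passing 2-fold was largely set by the naming. By its own signal every named probe of the lower list was at -1.54 or below. With dim sides at their bounds, 812 of the 948 tested were at least 2-fold lower. No contrast with the shares of all tested probes is read. The probes just inside the 4-fold line were PLK1 and the brightest E2F5 probe, and those just outside it were the faintest E2F5 probe and CDKN1B. The median over the 12 probes was -2.32, and the range ran from -4.53 to -1.91. WEE1 and CUL1 were counted at their bounds and FOXM1 at its own dim signal. The median over all tested probes was -0.01. Over the 9 probes that passed the filter on each array, 9 were at least 2-fold lower against 10.6% of all such probes, 7 were at least 4-fold lower against 2.52%, and the median was -2.31. For these 9 the own signals gave the difference, so that passing 2-fold was fixed by the naming. Probes bright on the DMSO array were lower more often than the tested probes as a whole. The DMSO signal is itself subtracted in the difference, so that sorting by it favours lower values by construction. Of 14730 probes above the 75th percentile of the DMSO array, 20.7% were at least 2-fold lower and 6.29% at least 4-fold lower, with a median of -0.24. The part of this brightness trend in the differences was not tested. In RNA from whole cultures, fewer cells in a phase of the cycle and less RNA of a gene per cell cannot be told apart.

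**Figure D2:**
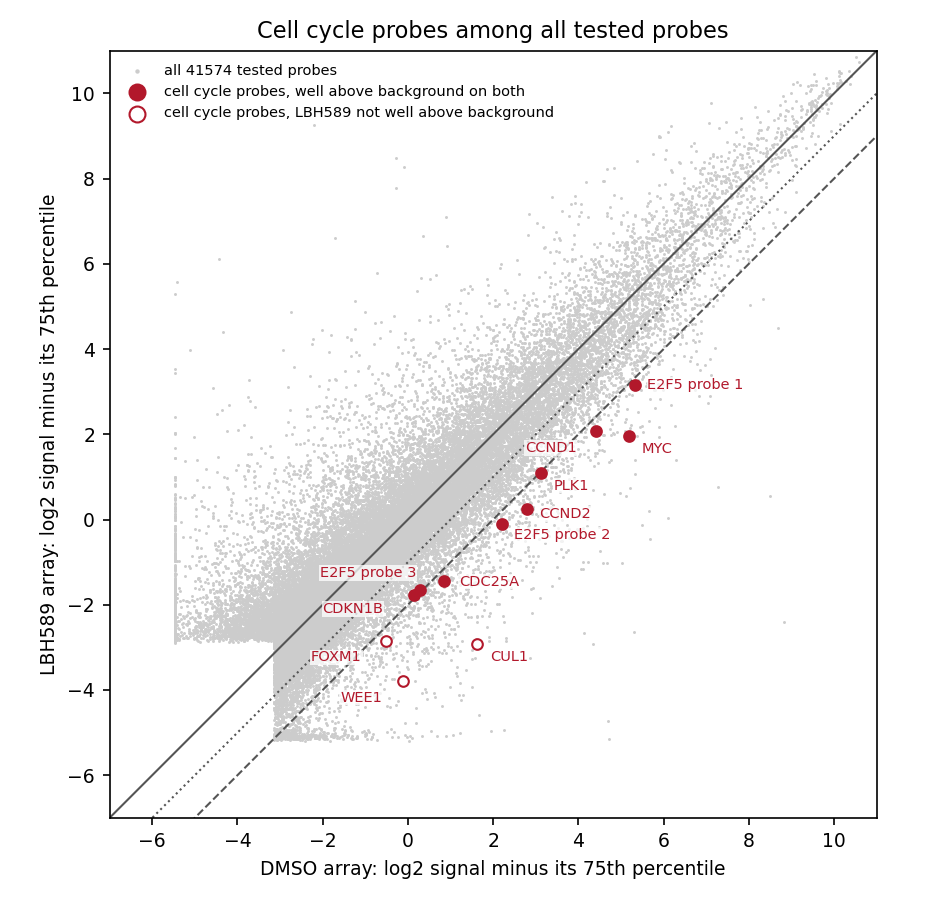
Scaled log2 signal of each of the 41574 tested probes on the LBH589 array against the DMSO array (grey points), with the 12 probes in red, open where the LBH589 signal did not pass the background filter. The solid line marks equal values, the dotted line 2-fold lower and the dashed line 4-fold lower, and 10 of the 12 red points count as at least 4-fold lower.

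Of the D-type cyclins, which activate CDK4 and CDK6 in G1, CCND1 and CCND2 were lower and CCND3 had no named probe. CCND1 (cyclin D1, chr11:69455873-69469242, plus strand) gave a signal of 3993 in the DMSO-treated cells and of 457 in the LBH589-treated cells. It was 5.02-fold lower, a difference of -2.33 with a measurement error of 0.20. CCND2 (cyclin D2, chr12:4382902-4414522, plus strand) gave 1307 in control cells and 128 in treated cells. It was 5.87-fold lower, a difference of -2.55 with an error of 0.21. The differences of these cyclins were 0.23 apart, within the combined measurement error of 0.29. Of the 8 G1 cyclins and CDKs on the list, these were the 2 with a named probe.

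CDKN1B, the CDK inhibitor of the Cip/Kip family that binds cyclin E and CDK2 complexes (chr12:12870302-12875305, plus strand), gave 209 in control cells and 32.0 in treated cells. It was 3.76-fold lower, a difference of -1.91 with an error of 0.25, and its treated signal lay just under the brightest negative control (32.6). It had the smallest difference among the 12 probes, and 2.87% of all tested probes were at least as low. A brake on the cycle was thus lower along with the genes that drive it. The other CDK inhibitors with a named probe lay on the opposite side. CDKN1C, of the same family, gave 152 and 756 and was 8.66-fold higher, and CDKN2D, an inhibitor of CDK4 and CDK6, gave 87.6 and 321 and was 6.37-fold higher. The remaining 4 of the 7 CDK inhibitors listed had no named probe.

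MYC, the transcription factor that raises growth and cyclin genes (chromosome 8), gave 6867 in control cells and 422 in treated cells. It was 9.35-fold lower, a difference of -3.23 with an error of 0.20, and 0.563% of all tested probes were at least as low. Among the 9 probes measured on both arrays it came first in the order of the differences, 0.67 from CCND2, the next, with a combined error of 0.29. Each of the 7 further steps in the order, from CCND2 to CDKN1B, was smaller than the combined error of its neighbours. Over all 28 pairs of probes without MYC, 11 lay further apart than their combined error and 0 further than 2 such errors. These errors cover the spots and not the cultures, and the genes were chosen by the same differences.

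Of the 5 other genes of the MYC network with a named probe, 4 lay on the opposite side. MAX, the partner through which MYC binds DNA, gave 240 in control cells and 739 in treated cells and was 5.36-fold higher. MXD4, which competes with MYC for MAX, gave 22.3 and 99.0 and was 7.72-fold higher. MXD1, of the same group, gave 21.0, not well above background, and 82.6. Against the lowest signal that passed on the DMSO array, 21.3, it was at least 6.74-fold higher. MYCL, a relative of MYC, gave 25.2 and 114 and was 7.90-fold higher. MXI1, another competitor for MAX, gave 127 and 15.8 and was 4.64-fold lower. So of the 6 of 11 genes of the MYC list with a named probe, 2 were lower and 4 were higher, all by at least 2-fold. The direction of each was set by the list of higher or lower probes that named it, and these lists hold changed probes alone. MXI1 and MXD1 did not reach 2-fold with normexp, at -0.85 and 0.98, and MXI1 was at -1.20 with median pixel signals. The control signals of MXD4 and MYCL lay under the brightest negative control of the DMSO array (70.0). The treated signal of MXI1 lay under that of the LBH589 array (32.6). MXD4 and MYCL were at 1.11 and 1.29 with normexp, and at 1.75 and 2.04 with median pixel signals. Of 18 MYC target genes, 4 had a named probe. CCND2 and CDC25A were lower, and SHMT2, an enzyme of serine metabolism in mitochondria, was lower by both of its probes, with signals of 1021 and 116 on the brighter (5.06-fold) and 228 and 20.1 on the fainter (6.55-fold). The treated signal of the fainter SHMT2 probe also lay under the brightest negative control (32.6). That probe was at -1.45 with normexp and at -1.99 with median pixel signals. ODC1, the enzyme that starts polyamine synthesis, was read by a probe printed 10 times and was not in the lower list. It gave 88337 in control cells and 85295 in treated cells, a difference of 0.75 once scaled and of -0.051 without scaling.

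E2F5, an E2F factor that acts mainly as a repressor with the p130 pocket protein (chromosome 8), was lower by all 3 of its probes. The brightest probe, designed for 3 transcripts, gave 7574 in control cells and 964 in treated cells and was 4.51-fold lower. The next gave 867 and 100 and was 4.96-fold lower. The faintest gave 230 and 34.7 and was 3.80-fold lower. The differences were -2.17, -2.31 and -1.93, with a standard deviation of 0.19 over the 3 probes, which share RNA and are not replicates. The largest gap among them was 0.38 against a combined error of 0.32. Of 19 genes of the RB, E2F and MuvB list, 3 had a named probe. RBBP4, a histone chaperone that binds RB, gave 1307 and 153 and was 4.90-fold lower. LIN54, the DNA-binding subunit of the MuvB complex, gave 9.59, not well above background, and 35.3, and was at least 2.88-fold higher, a call that ended with normexp (0.51 on the log2 scale), without scaling (0.73) and with median pixel signals (0.998).

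**Figure D3:**
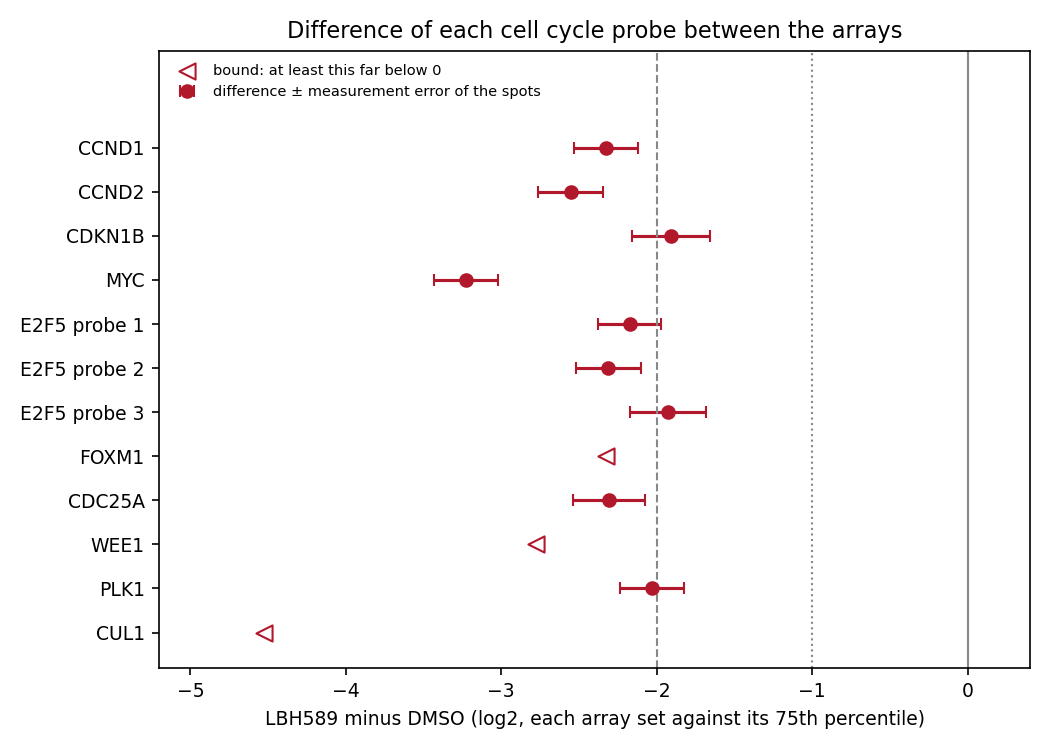
Difference of LBH589 minus DMSO (log2, each array set against its 75th percentile) for the 12 probes, with bars for the measurement error of the spots and open triangles for bounds. The triangle of FOXM1 stands at its own dim signal. CUL1 and MYC lie lowest, at a bound of -4.53 and at -3.23, and CDKN1B lies nearest to 0 at -1.91.

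The enzymes that set the inhibitory phosphates on CDKs were lower on both sides of the switch. CDC25A, the phosphatase that removes them (chr3:48198668-48229801, minus strand), gave 341 in control cells and 39.7 in treated cells. It was 4.94-fold lower, a difference of -2.31 with an error of 0.23. WEE1, the kinase that adds them (chr11:9596234-9611313, plus strand), gave 173 in control cells and 7.87 in treated cells, where it was not well above background. It was at least 6.85-fold lower against the lowest signal that passed on the LBH589 array, 14.5. By its own dim signal it was 12.6-fold lower, with an error of 0.59, the largest among the 12 probes. With median pixel signals WEE1 was at -2.08 on the log2 scale, and with normexp at -1.41. The other 7 of 9 genes on the list of CDC25, WEE1 and checkpoint kinases had no named probe. Of the 7 proteins of the YWHA family, which bind phosphorylated CDC25 and hold it in the cytoplasm, 3 had a named probe. YWHAE gave 7773 and 425 and was 10.5-fold lower, and YWHAZ gave 602 and 79.1 and was 4.38-fold lower. YWHAG gave 23.0 and 77.8 and was 5.88-fold higher. Its control signal lay under the brightest negative control (70.0), and YWHAG was at 1.05 with normexp and 1.80 with median pixel signals.

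FOXM1, the forkhead factor that turns on genes of G2 and mitosis (chr12:2966847-2986321, minus strand), gave 132 in control cells and 15.1 in treated cells, where it was not well above background. By its own dim signal it was 5.01-fold lower, with an error of 0.37 on the log2 scale. FOXM1 was at -1.49 with median pixel signals and at -1.01 with normexp. Its control signal was the lowest of the 12 probes. PLK1, the kinase of mitotic entry and spindle assembly (chr16:23690201-23701688, plus strand), gave 1646 in control cells and 231 in treated cells. It was 4.09-fold lower, a difference of -2.03 with an error of 0.20. PLK1 was the only one of 16 listed FOXM1 target genes with a named probe, and FOXM1 and PLK1 the only 2 of 14 genes on the list of mitotic cyclins and kinases. RAD21, the cohesin subunit that is cut when sister chromatids part, was the 1 of 11 spindle checkpoint and cohesin genes with a named probe, and gave 658 and 90.5, a 4.18-fold lower signal. From the list of 24 replication licensing genes, MCM7, a subunit of the replicative helicase, gave 2360 and 246 and was 5.52-fold lower. GINS3, of the same helicase, gave 110 and 11.8, the latter not well above background, and was at least 4.36-fold lower, a bound that was -0.88 on the log2 scale with normexp and -1.29 with median pixel signals.

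CUL1, the cullin scaffold of the SCF ubiquitin ligases (chr7:148395933-148498202, plus strand), gave 582 in control cells and 14.2 in treated cells, where it was not well above background. Against the lowest signal that passed on the LBH589 array, 14.5, it was at least 23.0-fold lower. By that measure 0.0986% of all tested probes were at least as low. CUL1 was at -3.45 on the log2 scale with median pixel signals. Its bound of -4.53 lay beyond the measured difference of every other gene among the 10, an order that turned with the background corrected by normexp, where CUL1 was at -2.61 and MYC at -3.01. No other of the 23 genes on the SCF and APC/C list had a named probe.

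Over all lists, 27 of 154 genes had a named probe, so that no share of a list can be read from these counts. Apart from the 10 chosen genes 17 were left, of which 8 were at least 2-fold lower and 8 at least 2-fold higher, beside 10.2% and 12.3% of all tested probes. With normexp 6 were lower and 6 higher, and over probes that passed the filter on each array 7 and 6. Except for ODC1, which was matched by its RefSeq accession, the genes were named by tables of higher and lower probes, which fixed their direction. These tables hold changed probes alone, and every named probe of the lower table was at -1.54 or below by its own signal. Passing 2-fold was thus largely set by the naming, and nothing is read from these counts beside the shares of all tested probes. The named probes of the lower table, 948 of them tested, had a median of -2.27 and 675 were at least 4-fold lower (71.2%). The 12 probes, with 10 at least 4-fold lower and a median of -2.32, were therefore placed near the middle of the table from which they came. The named probes whose difference was closest to that median belonged to VMO1, NRN1 and DECR1, each at -2.32 on the same 2 arrays.

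**Figure D4:**
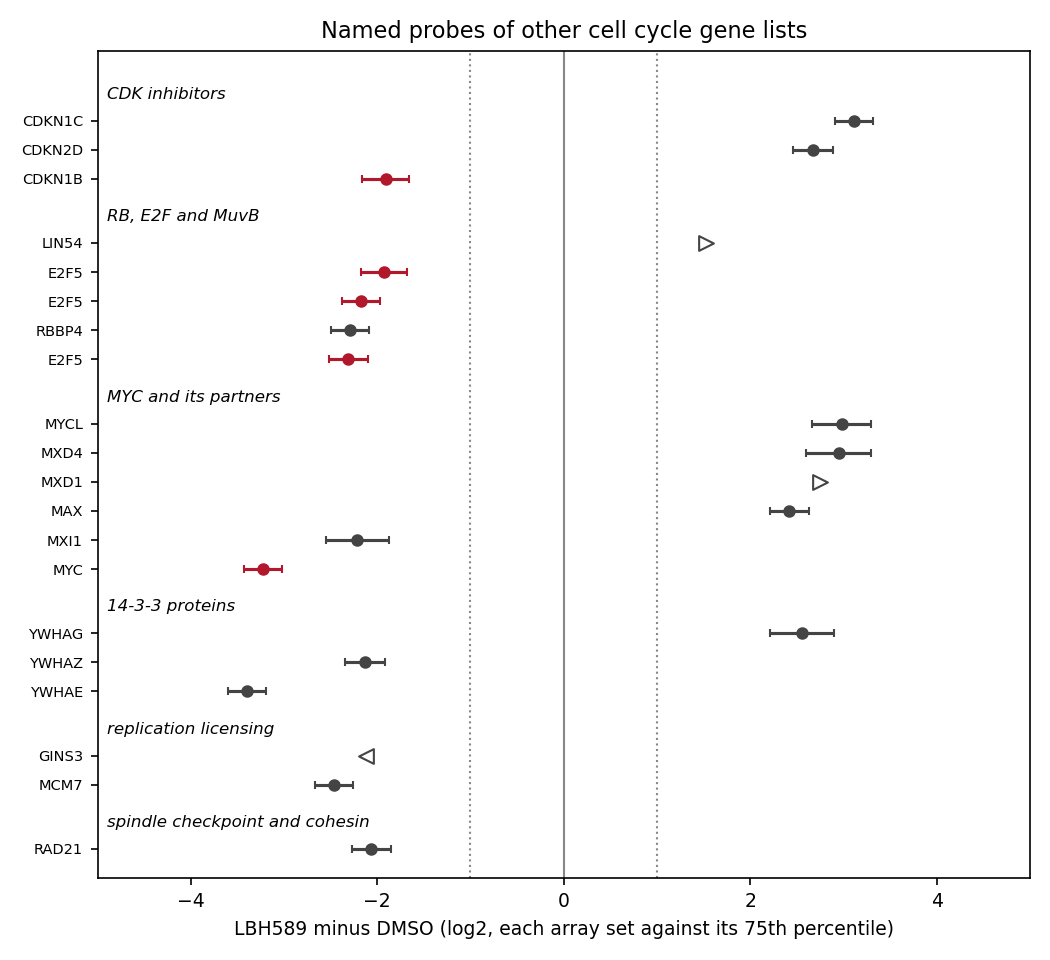
Difference of LBH589 minus DMSO (log2) for the named probes of 6 gene lists, with the chosen genes in red, bars for the measurement error of the spots and open triangles for bounds. Genes of the MYC list and the CDK inhibitors lie on both sides of 0, from MYC at -3.23 to CDKN1C at 3.11. MCM7, GINS3 and RAD21, of the replication and cohesin lists, lie below 0. The side of each probe was fixed by the list of higher or lower probes that named it.

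Some named probes lay within 50000 bp of the genes. RP11-264F23.3, a long noncoding RNA on the minus strand (chr12:4357931-4385350) annotated as a natural antisense transcript, overlapped CCND2 by 2449 bp. Its probe is shown because its signal was lower together with that of the cyclin.
RP11-264F23.3 probe: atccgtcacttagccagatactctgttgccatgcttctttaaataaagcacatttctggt
It gave 654 in control cells and 45.1 in treated cells, an 8.33-fold lower signal and a difference of -3.06 with an error of 0.23. This lay 0.50 below the difference of CCND2, with a combined error of 0.31. The probes of CCND2 and of the antisense transcript shared no run above 5 bases on either strand.

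EZH2, the methyltransferase of histone H3 in Polycomb complex 2, lay 6262 bp from CUL1 (chr7:148504464-148581441, minus strand). Its probes gave 4173 and 383 (6.27-fold lower), and 2193 and 222 (5.69-fold lower). The intergenic transcript HMlincRNA552, 6932 bp from MYC, gave 25.4 and 3.05, the latter not well above background, with a bound of 1.01-fold lower. CAMP, an antimicrobial peptide gene 35036 bp from CDC25A, gave 8.02, not well above background, and 22.9, at least 1.87-fold higher. Of these 4 neighbours, RP11-264F23.3 and EZH2 were at least 2-fold lower, beside 10.2% of all tested probes, and nothing is read from that count, since neighbours too were named by the lists of higher and lower probes.

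The RefSeq promoter windows used here (build GRCh38.p14) held 4 of the 10 genes, CDC25A, CDKN1B, PLK1 and CUL1, with 5 windows for CUL1 and 1 for each of the others. The 250 bases before the start were searched on both strands for the E2F core (TTCGCGC or TTGGCGC), the CHR element (TTTGAA or TTCGAA), the E-box CACGTG, the CCAAT box and the GC box GGGCGG, since these letters are known from promoters of cell cycle genes. The windows of 3 genes are shown with these motifs in capitals, for CDC25A at chr3:48188418-48188667 (minus strand), for CDKN1B at chr12:12717118-12717367 (plus strand) and for PLK1 at chr16:23678639-23678888 (plus strand).
CDC25A promoter: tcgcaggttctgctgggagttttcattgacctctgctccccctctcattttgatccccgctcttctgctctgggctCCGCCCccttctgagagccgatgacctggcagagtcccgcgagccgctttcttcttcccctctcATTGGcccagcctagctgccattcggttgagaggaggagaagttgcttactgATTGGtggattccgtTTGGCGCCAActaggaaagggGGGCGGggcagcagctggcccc
CDKN1B promoter: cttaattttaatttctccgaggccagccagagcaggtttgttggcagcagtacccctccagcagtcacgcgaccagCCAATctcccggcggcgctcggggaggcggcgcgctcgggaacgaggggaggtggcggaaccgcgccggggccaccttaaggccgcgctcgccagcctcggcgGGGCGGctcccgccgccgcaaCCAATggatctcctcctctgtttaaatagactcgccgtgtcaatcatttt
PLK1 promoter: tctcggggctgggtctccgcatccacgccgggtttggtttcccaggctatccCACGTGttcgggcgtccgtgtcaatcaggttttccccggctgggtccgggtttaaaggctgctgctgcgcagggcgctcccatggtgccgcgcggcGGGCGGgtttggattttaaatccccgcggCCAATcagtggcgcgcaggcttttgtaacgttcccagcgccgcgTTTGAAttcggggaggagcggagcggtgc
The E2F core was in 4.24% of 35116 windows and, among the 4 genes, in that of CDC25A, where matches on each strand overlapped at 43 and 40 bases before the start. The CHR letters were in 14.3% of windows and stood 29 bases before the start of PLK1 and 61 bases before 1 of the CUL1 starts. The E-box was in 6.34% of windows and stood 198 bases before the start of PLK1. CCAAT was in 32.0% of all windows and in 5 of the 8 windows of the 4 genes, at least 1 for each gene, against 37.0% of all genes with a window. It stood at 110 and 58 bases in CDC25A, 174 and 50 in CDKN1B, 73 in PLK1, and 202 and 53 in separate windows of CUL1. The GC box was in 42.6% of all windows and in 5 of the 8, again at least 1 for each gene, against 46.2% of all genes. These matches are letters in a window and were not tested as sites. GC content ran from 48.8% to 78.8% over the 8 windows of the 4 genes, against a median of 58% over all windows.

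Every probe that had a value was lower under each of the 10 alternative ways of processing the arrays, while the size varied. That direction was set by the choice of genes, and some alternatives could barely change a value. FOXM1, WEE1 and CUL1 had no value where only probes above background on each array were kept. With the background corrected by normexp and the arrays quantile normalized, the median was -1.78. FOXM1 was then at -1.01, CDKN1B at -1.03, and CDC25A and WEE1 at -1.41, and the faintest E2F5 probe came just short of 2-fold. With median pixel signals CDC25A was at -1.81, CDKN1B at -1.37 and the faintest E2F5 probe at -1.30. Without scaling, the median was -3.12, and that over all tested probes -0.81.

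**Figure D5:**
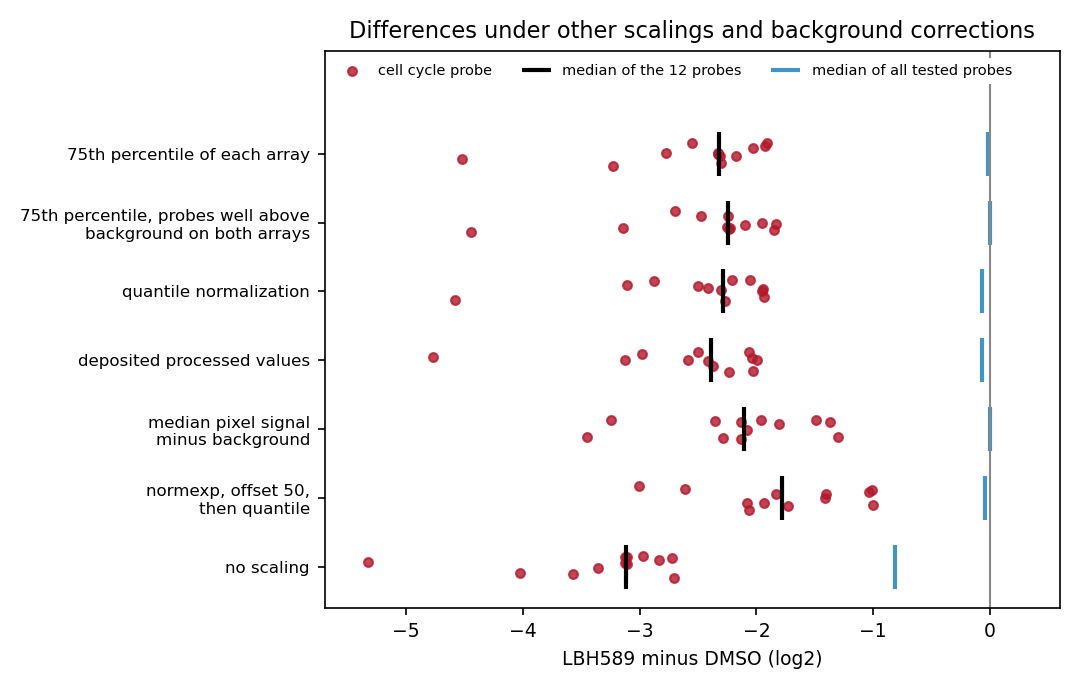
Difference of LBH589 minus DMSO (log2) of each of the 12 probes under the reported processing (top row) and 6 of the 10 alternatives, with black marks for their median and blue marks for the median of all tested probes. All red points lie below 0, from -5.32 without scaling to -1.0 with normexp.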

How the data were processed

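RNA of 1 DMSO-treated and 1 LBH589-treated SK-NEP-1 culture was measured on 1 array each. The authors deposited scanner output in which each spot has a processed signal, an intensity with the background subtracted, its error and quality flags (a score of 0 or 1 per spot, as deposited). The file headers name Agilent Feature Extraction 11.0.1.1 and build hg19, and the submitters' processing notes name 10.7.3.1. The authors also deposited a table of log2 values for 41891 probes (column medians 6.27 and 6.26). It followed the log2 processed signals (r = 0.9997 and 0.9995 across probes), but the method of its centring stays unknown. Gene names came from the study's lists of higher and lower probes, whose fold changes were not used; of these lists 1002 and 952 rows were named here.

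The spots of controls and flagged spots were left out, the log2 intensities of a probe's spots were averaged, and the 75th percentile over 58921 probes was subtracted from each array. A probe flagged by the software as well above background on either array entered the counts. Where 1 side was dim, that side was raised to the lowest signal passing this flag on its array, which gave a bound. Where its own signal was higher, as for FOXM1, that signal was kept. A bound holds for this processing and flag alone, and 5 of the 60 negative controls on the LBH589 array also passed the flag. The error is the software's spot error, combined over both arrays. Its limit is that it covers the spots and not the cultures. Over 20 probes printed 10 times, the standard deviation of spots within an array was 0.031 to 0.36 on the log2 scale. This too is a spread of spots and does not measure variation between cultures. The number of arrays, 1 per condition, limits the precision and allows no test. The 2-fold and 4-fold lines are descriptive. The 10 genes, the gene lists and the thresholds were chosen with earlier results of these data known. Named were the 12 probes of the 10 genes, every listed gene with a named probe, named probes within 50000 bp, and the 3 nearest the median. Python 3.11.15, numpy 2.4.6, pandas 2.3.3, R 4.3.3 and limma 3.58.1 were used, and the calculation was tested on simulated data. Normexp was planned on the mean pixel signal and was run on the median pixel signal, the column used here. The alternatives were other scalings and background corrections, the authors' log2 table, a floor of 5, the dim signal itself, median pixels, flagged spots kept, and probes well above background on both arrays.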

Additional observations from a re-analysis of the deposited data

How the results depend on the processing

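The probes were lower in all 117 values obtained under the 10 alternatives, from -5.32 to -1.0, a direction set by the choice of genes. FOXM1, WEE1 and CUL1 have none where only probes above background on each array are kept. Of the 117 values, 86 stayed within the measurement error of the spots and 31 moved beyond it. Those that moved were 12 without scaling, 12 with normexp, 6 with median pixels and 1 with the dim signal in place of its bound. The 86 are not separate checks, since some alternatives could barely move a value. No spot of the 12 probes was flagged, none of their signals fell under the floor, and dropping dim probes left the others unchanged. The median of the 12 probes was -3.12 without scaling and -1.78 with normexp. Without scaling, all tested probes moved too, with a median of -0.81. The 12 probes stood at -2.30 relative to it, as in the reported processing. This had to be so, since leaving out the scaling shifts the measured differences by the same amount. With normexp 11 of 12 were at least 2-fold lower, the faintest E2F5 probe falling just short, and 4 at least 4-fold lower against 10. Of all tested probes, 39.1% were at least 2-fold lower and 4.33% at least 2-fold higher without scaling, against 10.2% and 12.3%, and 7.40% were at least 4-fold lower. With normexp 5.48% were at least 2-fold and 1.04% at least 4-fold lower. Among other listed genes, ODC1 changed sign without scaling, to -0.051, and with normexp MXI1, MXD1, LIN54 and GINS3 did not reach 2-fold. Normexp was run on median pixel signals in place of mean ones. No paired analysis was possible because each condition has 1 array, and no array could be left out for the same reason. Signals near those of the negative controls limit WEE1 and CUL1 to bounds and FOXM1 to a dim signal. CDKN1B in treated cells lay just under the brightest negative control. MXD4, MYCL and YWHAG lay under the brightest negative control in control cells. MXI1 and the fainter SHMT2 probe did so in treated cells.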
